A study of Mus musculus with 9 samples.

Results

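The nuclear-encoded subunits of respiratory complex I were followed in the mouse heart after myocardial infarction. The members are the protein-coding genes whose symbol starts with Nduf followed by a, b, c, s or v, without the Ndufaf assembly factors, at a mean of 1 FPKM or more over 9 libraries. FPKM is the number of sequenced fragments per length of transcript and per size of library. The rule found 38 genes among the 25468 of the file, and all 38 reached the minimum. Of these, 36 encode subunits of complex I. Ndufa4, named as a complex I gene, is now counted with complex IV, and Ndufa4l2, its paralog, is known as a gene induced by low oxygen.

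Complex I, NADH:ubiquinone oxidoreductase, is the entry point of electrons from NADH into the respiratory chain, and it pumps protons across the inner mitochondrial membrane. Its N module oxidises NADH, its Q module passes the electrons through iron-sulfur clusters to ubiquinone, and its membrane arm moves the protons. The catalytic core of the N and Q modules is made in the cytosol from nuclear genes, and the core of the membrane arm is made inside the mitochondrion from mitochondrial genes. Accessory subunits, all nuclear-encoded, surround the core and are needed to build and hold it. Cardiomyocytes, which are rich in mitochondria, carry most of the complex in the heart.

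RNA was sequenced from hearts of wild-type (WT) mice in 3 groups of 3 libraries: sham operation, 1 day after acute myocardial infarction (AMI), and 7 days after it. The labels give no strain, age, sex or region of the heart, and no day of collection for the sham hearts, so both times were compared with the same 3 sham libraries. Nothing states that replicate libraries stem from different animals, so p-values measure the spread between libraries, which may be technical in part. The series also describes Hdc-/- hearts, which were not analysed here. Each comparison used limma on log2(FPKM + 1) over 13514 genes, a gene was called at a Benjamini-Hochberg adjusted p under 0.05, and every fold change below is a log2 value on that scale.

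The depth of the libraries is unknown. Summed FPKM over every gene was 768943 to 792632 in sham, 597380 to 729940 at day 1 and 521643 to 679204 at day 7. Every infarct total was thus below every sham total, and the fold changes below use unscaled FPKM unless a scaling is named. The tissue label was checked against 10 cardiomyocyte genes, such as Myh6 and Tnnt2, all of which were detected: their FPKM summed to 35078 to 38034 in the sham libraries, 18302 to 23048 at day 1 and 14114 to 25366 at day 7. Markers of some other cells moved too. The sum over 6 fibroblast genes was 1066 to 1348 in sham, 1699 to 2256 at day 1 and 4346 to 6108 at day 7, that over 8 macrophage genes 464 to 795, 711 to 993 and 1056 to 1329, and that over 6 neutrophil genes 47.0 to 64.1, 117 to 311 and 29.1 to 69.2. For 5 genes of red blood cells it was 255 to 723, 584 to 2255 and 949 to 2433. Of the 6 fibroblast genes, 4 were called higher at day 1 and 1 lay below sham in every day 1 library. The sum over 5 endothelial genes was 234 to 261, 225 to 305 and 235 to 355. That over 5 smooth muscle and pericyte genes was 239 to 290, 213 to 245 and 276 to 343. Both sums overlapped with sham at each time. Libraries also differed within groups: 4 airway genes summed to 202 in sham library 1 and 1614 in day 1 library 2 against at most 16.7 elsewhere, 6 atrial genes ranged from 237 (sham library 3) to 11106 (day 1 library 1), and 4 T cell genes stood at 52.0 in day 7 library 2 against at most 9.98 elsewhere. Sham library 1 also stood apart in fat: 3 genes of brown fat, a mitochondria-rich tissue, summed to 107 there against 7.62 to 14.8 in the other 8 libraries, and 5 adipocyte genes to 1943 against at most 1098. No marker of these other lists was at 0 in all 9 libraries, and all 4 airway genes were at 0 in day 1 library 3. In bulk tissue RNA, fewer cells of a type and less RNA per cell cannot be told apart.

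Because FPKM is a value per length, RNA levels can be set side by side between genes, as far as the correction for length holds in short transcripts. Over the 9 libraries the 36 complex I genes ranged from a mean of 45.7 FPKM for Ndufa11 to 679 for Ndufb9, a subunit of the distal membrane arm. The next in order were Ndufb8 at 653, Ndufa1 at 630.4 and Ndufa5 at 502. In the sham hearts Ndufb9 (924, 925 and 822 FPKM) lay above Ndufb8 (807, 802 and 770.2 FPKM) in each library, while Ndufb8 and Ndufa1 (886, 839 and 850.1 FPKM) came in the other order there. The genes of the catalytic core did not have the highest RNA levels: its 7 genes lay between 111 FPKM (Ndufs8) and 302 (Ndufv2). Ndufa4 was above all of them at 1267 and Ndufa4l2 below all of them at 14.7 FPKM.

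Complex I genes were lower 1 day after infarction. Of the 38 members, 24 were called lower and 0 higher, where 14.7% of all genes tested were called lower and 13.4% higher. At an unadjusted p under 0.05, 34 were lower and 0 higher, against 5574 of all 13514 genes in either direction. In 37 of 38, every day 1 library lay below every sham library, which held for 25.1% of all genes. The median fold change was -0.61, against -0.01 over all genes, and 37 of 38 were below 0, against 50.9% of all genes. The count of calls moved with the libraries: it was 7 without sham library 1, 5 without sham library 2 and 12 without sham library 3. It was 9 without day 1 library 1 and 3 without day 1 library 2. In each of these fits 37 or 38 members were below 0. Over all genes, the 1993 called lower became 1218, 816, 1215, 1237 and 790 in the same order, so those counts fell too. Without both libraries that held airway genes, sham library 1 and day 1 library 2, limma called 0 members. In that fit 146 of all 13514 genes were called lower and 256 higher. Of the members, 13 were lower and 0 higher at an unadjusted p under 0.05, with 37 of 38 below 0 and a median of -0.49. Sham library 1, which held the brown fat genes, was the highest sham library for 20 of the 38 members, and without it the median was -0.58. The 2 brown fat genes tested had a median of -1.10 at day 1 and -1.53 at day 7, with 0 called by limma and 1 lower at an unadjusted p under 0.05 at each time. The part of that tissue in the lower values of the members was not tested beyond leaving out that library. Of the 24 called members, 3 were called whichever library was left out. Scaling each library to a common total of FPKM shifted the all-gene median from -0.01 to 0.23 and left 17 members lower and 0 higher with a median of -0.33, while 601 of all genes (4.45%) were then lower and 2445 (18.1%) higher, against 1993 and 1817.

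At day 7 the members were still below sham. Here 20 of 38 were called lower and 0 higher, against 17.3% of all genes called lower and 15.7% higher, and 32 were lower and 0 higher at an unadjusted p under 0.05. That p held for 6174 of all 13514 genes, in either direction. The libraries of the 2 groups did not overlap in 33 of 38, all lower, against 28.8% of all genes. The median fold change was -0.52, against -0.02 over all genes, and 37 of 38 were below 0, against 51.7%. Without sham library 1, 2 or 3 the count was 5, 3 and 11, with a median of -0.49 without the first, and without day 7 library 1 it was 8. Over all genes, the 2341 called lower became 1517, 1042 and 1500 without those sham libraries and 1307 without that day 7 library. Without both libraries that held airway genes 2 members were called lower, with 20 lower at an unadjusted p under 0.05 and a median of -0.49. In that fit 1047 of all 13514 genes were called lower and 1078 higher. Of the 20 called members, 3 were called whichever library was left out. Scaled to a common total, the all-gene median was 0.30 and 7 members were lower and 1 higher, with a median of -0.17, beside 527 of all genes (3.9%) lower and 3809 (28.2%) higher, against 2341 and 2127.

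**Figure D1:**
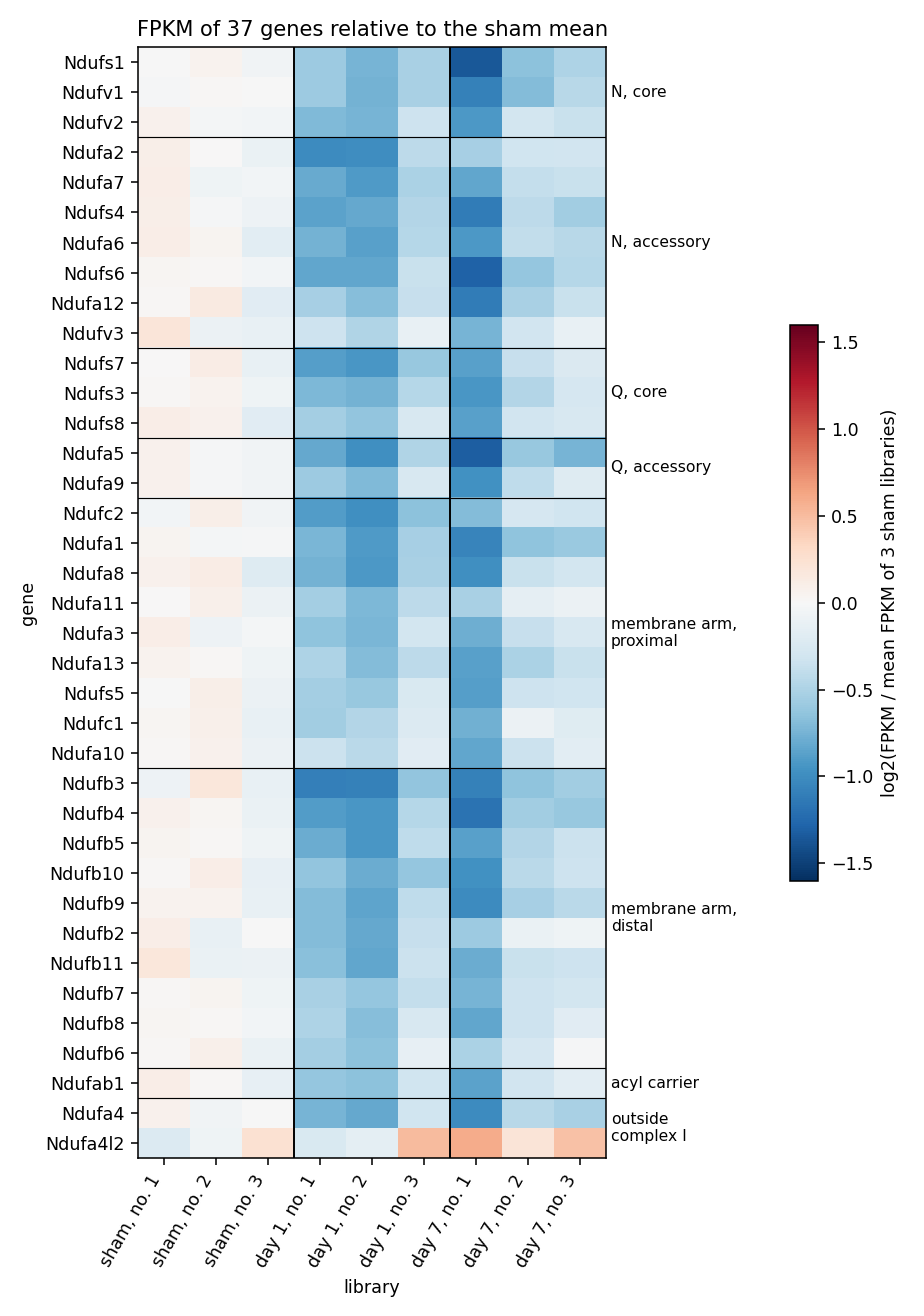
Each row is 1 of 37 genes, grouped by its place in complex I, and each column is 1 library. The colour is log2 of FPKM over the mean of the 3 sham libraries, blue where lower. Nearly all rows are blue in the 6 infarct libraries, palest in day 1 library 3 and day 7 libraries 2 and 3, and Ndufa4l2, the bottom row, is not.

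The N module, where NADH is oxidised, had 6 of 10 genes called lower at day 1 and 7 of 10 at day 7. For each part of the enzyme below, the all-gene shares called lower were 14.7% at day 1 and 17.3% at day 7. Ndufv1 was at 208, 212 and 209.6 FPKM in the sham libraries, 141, 124 and 147 at day 1 and 98.8, 130.0 and 154 at day 7. Ndufv1 binds NADH and the flavin that takes its electrons, and its fold changes were -0.61 (SE 0.15, adjusted p = 0.0214) at day 1 and -0.74 (SE 0.15, adjusted p = 0.0109) at day 7. Ndufs1 was at 211, 219 and 203 FPKM in the sham libraries, 141, 127 and 148 at day 1 and 82.5, 133 and 151 at day 7. Ndufs1, the largest core subunit of the module, carries several iron-sulfur clusters, and its fold changes were -0.61 (SE 0.20, adjusted p = 0.0509) at day 1 and -0.83 (SE 0.20, adjusted p = 0.0166) at day 7. For both genes day 7 library 1 was the lowest of all 9 libraries and the groups did not overlap with sham. Ndufv2 was at 400.5, 375 and 369.9 FPKM in the sham libraries, 235, 227 and 303 at day 1 and 202, 311 and 299 at day 7. Ndufv2, the third core subunit, holds a further iron-sulfur cluster, and its fold changes were -0.59 (SE 0.18, adjusted p = 0.0414) at day 1 and -0.52 (SE 0.18, adjusted p = 0.0567) at day 7.

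Of the 7 accessory genes of the N module, 4 were called at day 1 and 5 at day 7. Ndufa2 was at 352, 329 and 305 FPKM in the sham libraries, 164, 165 and 245 at day 1 and 228, 264 and 265 at day 7. Ndufa2, a small subunit with a thioredoxin-like fold, was at 58.2% of the sham mean at day 1 and 76.8% at day 7, with fold changes of -0.80 (SE 0.16, adjusted p = 0.0107) at day 1 and -0.38 (SE 0.16, adjusted p = 0.106) at day 7. Ndufs6 was at 528, 525 and 500.5 FPKM in the sham libraries, 290.0, 292 and 404 at day 1 and 211, 338 and 378 at day 7. Ndufs6, a zinc-binding subunit, had fold changes of -0.67 (SE 0.22, adjusted p = 0.0521) at day 1 and -0.78 (SE 0.22, adjusted p = 0.0287) at day 7. Its lowest library was again day 7 library 1. Ndufa12 was at 343, 374 and 297 FPKM in the sham libraries, 233, 211 and 262 at day 1 and 156, 237 and 264 at day 7. Ndufa12, which takes the place of the assembly factor Ndufaf2 in the finished enzyme, had fold changes of -0.52 (SE 0.20, adjusted p = 0.0812) at day 1 and -0.65 (SE 0.20, adjusted p = 0.035) at day 7. Ndufv3 was at 498, 409 and 403 FPKM in the sham libraries, 348, 314 and 402 at day 1 and 261, 352 and 401 at day 7. Ndufv3, at the tip of the arm, had the smallest fold change of the 36 genes at day 1, -0.30 (SE 0.18, adjusted p = 0.244), with -0.38 (SE 0.18, adjusted p = 0.13) at day 7, and its day 1 library 3 almost reached the lowest sham library. The other 3 genes, Ndufa7, Ndufs4 and Ndufa6, were called at both times, with fold changes from -0.74 to -0.69 at day 1 and from -0.69 to -0.51 at day 7. Loss of Ndufs4 is a known cause of complex I deficiency in children and in a mouse model, and Ndufa6 anchors the acyl carrier protein.

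In the Q module, which reduces ubiquinone, 3 of 6 genes were called at each time. Ndufs7 was at 287, 310.3 and 263 FPKM in the sham libraries, 156, 150.1 and 189 at day 1 and 157, 222 and 245 at day 7. Ndufs7 carries the last iron-sulfur cluster before ubiquinone and had the largest fall of the 7 core genes at day 1: its fold changes were -0.80 (SE 0.17, adjusted p = 0.013) at day 1 and -0.49 (SE 0.17, adjusted p = 0.0609) at day 7. Ndufs3 was at 246, 252 and 233 FPKM in the sham libraries, 148, 144 and 178 at day 1 and 127, 177 and 202 at day 7. Ndufs3, a core subunit without a cofactor that is built in early, was called at both times, with -0.64 (SE 0.17, adjusted p = 0.0238) at day 1 and -0.55 (SE 0.17, adjusted p = 0.0359) at day 7. Ndufs8 was at 145, 142 and 119 FPKM in the sham libraries, 93.0, 87.8 and 113 at day 1 and 73.9, 109 and 113 at day 7. Ndufs8, another carrier of iron-sulfur clusters, missed the threshold at both times, with -0.47 (SE 0.18, adjusted p = 0.0833) at day 1 and -0.47 (SE 0.18, adjusted p = 0.0726) at day 7, although its libraries did not overlap with sham.

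Both accessory genes of the Q module were below sham in every infarct library. Ndufa5 was at 737, 693 and 672 FPKM in the sham libraries, 397, 355 and 500.3 at day 1 and 279.9, 461 and 419 at day 7. Ndufa5, which sits on the outside of the matrix arm, had the largest fall of all members at day 7 (gene ENSMUSG00000023089), to 55.2% of the sham mean, with fold changes of -0.76 (SE 0.20, adjusted p = 0.0249) at day 1 and -0.89 (SE 0.20, adjusted p = 0.0137) at day 7. Ndufa9 was at 191, 179 and 175 FPKM in the sham libraries, 122, 111 and 152 at day 1 and 92.5, 137 and 157 at day 7. Ndufa9, a nucleotide-binding subunit at the joint with the membrane, had fold changes of -0.51 (SE 0.20, adjusted p = 0.0833) at day 1 and -0.52 (SE 0.20, adjusted p = 0.0683) at day 7.

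Of the 19 accessory genes of the membrane arm, 14 were called lower at day 1 and 9 at day 7. Among the 9 of its proximal part, 6 and 3 were called. Ndufc2 was at 190.3, 210.4 and 189 FPKM in the sham libraries, 105, 99.7 and 125 at day 1 and 121, 163 and 158 at day 7. Ndufc2, a membrane subunit of that part, had fold changes of -0.84 (SE 0.14, adjusted p = 0.00546) at day 1 and -0.42 (SE 0.14, adjusted p = 0.0465) at day 7. Ndufa1 was at 886, 839 and 850.1 FPKM in the sham libraries, 515, 459.6 and 594 at day 1 and 411, 548 and 569.6 at day 7. Ndufa1, a small single-span subunit encoded on the X chromosome, had -0.72 (SE 0.16, adjusted p = 0.0124) at day 1 and -0.77 (SE 0.16, adjusted p = 0.00985) at day 7. At day 1 the fall of Ndufc2 was called whichever of the 9 libraries was left out, as were those of Ndufa2 and Ndufb3, and at day 7 this held for Ndufa1, Ndufa5 and Ndufv1.

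Ndufa13 was at 184, 179.9 and 169 FPKM in the sham libraries, 126, 109.7 and 133 at day 1 and 97.3, 125 and 139 at day 7. Ndufa13, also known as GRIM-19, had fold changes of -0.53 (SE 0.14, adjusted p = 0.0244) at day 1 and -0.57 (SE 0.14, adjusted p = 0.0178) at day 7. Ndufa10 was at 164, 169 and 152 FPKM in the sham libraries, 128, 120.1 and 143 at day 1 and 91.0, 128 and 143 at day 7. Ndufa10, with a fold like that of nucleoside kinases, had -0.31 (SE 0.16, adjusted p = 0.182) at day 1 and -0.44 (SE 0.16, adjusted p = 0.0656) at day 7. Ndufs5 was at 399, 430.4 and 375 FPKM in the sham libraries, 277, 264 and 339 at day 1 and 218, 319 and 322 at day 7. Ndufs5, on the intermembrane side, had -0.46 (SE 0.17, adjusted p = 0.0782) at day 1 and -0.51 (SE 0.17, adjusted p = 0.0514) at day 7. Of the remaining 4 proximal genes, Ndufa8, Ndufa3 and Ndufa11 were called at day 1, with fold changes of -0.72, -0.55 and -0.55, and none of them at day 7. Ndufa8 is a disulfide-bonded subunit of the intermembrane side, and Ndufa11 lies where complex I meets complex III in supercomplexes. Ndufc1 had -0.41 (adjusted p = 0.129) at day 1 and -0.35 (adjusted p = 0.173) at day 7.

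In the distal part of the membrane arm, 8 of 10 genes were called at day 1 and 6 at day 7. Ndufb3 was at 267, 320.1 and 259 FPKM in the sham libraries, 132, 133 and 183 at day 1 and 133, 181 and 192 at day 7. Ndufb3, a small membrane subunit, had the largest fall of all 38 genes at day 1 (gene ENSMUSG00000026032), to 52.9% of the sham mean, with fold changes of -0.92 (SE 0.18, adjusted p = 0.00922) at day 1 and -0.75 (SE 0.18, adjusted p = 0.0171) at day 7. Ndufb4 was at 292, 286 and 259 FPKM in the sham libraries, 149.9, 146 and 202 at day 1 and 123, 189.7 and 182 at day 7. Ndufb4 had -0.76 (SE 0.19, adjusted p = 0.0209) at day 1 and -0.78 (SE 0.19, adjusted p = 0.0174) at day 7. Ndufb9 was at 924, 925 and 822 FPKM in the sham libraries, 551, 494 and 672 at day 1 and 442, 618 and 659 at day 7. Ndufb9, a LYR-motif protein that binds the acyl carrier at the far end of the arm, had -0.65 (SE 0.18, adjusted p = 0.0298) at day 1 and -0.65 (SE 0.18, adjusted p = 0.0264) at day 7. For all 3 genes the libraries of each infarct group lay below those of sham.

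Of the other 7 distal genes, Ndufb5, Ndufb7 and Ndufb10 were called at both times and Ndufb2 and Ndufb11 at day 1. Their day 1 fold changes ran from -0.71 (Ndufb5) to -0.44 (Ndufb6) and their day 7 fold changes from -0.57 (Ndufb10) to -0.25 (Ndufb2). Ndufb7 and Ndufb10 are disulfide-bonded subunits of the intermembrane side. Ndufb8 had -0.47 and -0.45 (adjusted p = 0.0846 and 0.0909), and Ndufb6 was called at neither time (adjusted p = 0.0789 and 0.244). Ndufab1, the mitochondrial acyl carrier protein that also serves fatty acid and iron-sulfur cluster synthesis, had -0.53 (SE 0.18, adjusted p = 0.0603) at day 1 and -0.44 (SE 0.18, adjusted p = 0.0949) at day 7. At day 7, the infarct and sham libraries of Ndufa11, Ndufb2, Ndufb6 and Ndufc1 overlapped.

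The 2 members outside complex I are a subunit of complex IV and its paralog. Ndufa4 was at 1729.7, 1585 and 1646 FPKM in the sham libraries, 988, 941 and 1322 at day 1 and 820.0, 1216 and 1154 at day 7. Its fold changes were -0.62 (SE 0.19, adjusted p = 0.0412) at day 1 and -0.66 (SE 0.19, adjusted p = 0.0318) at day 7. Ndufa4l2 was at 11.1, 12.4 and 15.4 FPKM in the sham libraries, 10.9, 11.6 and 18.4 at day 1 and 19.5, 14.9 and 17.9 at day 7. Its fold changes were 0.05 (SE 0.20, adjusted p = 0.883) at day 1 and 0.41 (SE 0.20, adjusted p = 0.14) at day 7, so it was the sole member above 0 at either time, and its libraries overlapped with sham at both. Its day 1 value turned to -0.05 without sham library 1 and to -0.17 without day 1 library 3. Scaled to a common total, the day 7 value was 0.76 (SE 0.20, adjusted p = 0.0225).

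**Figure D2:**
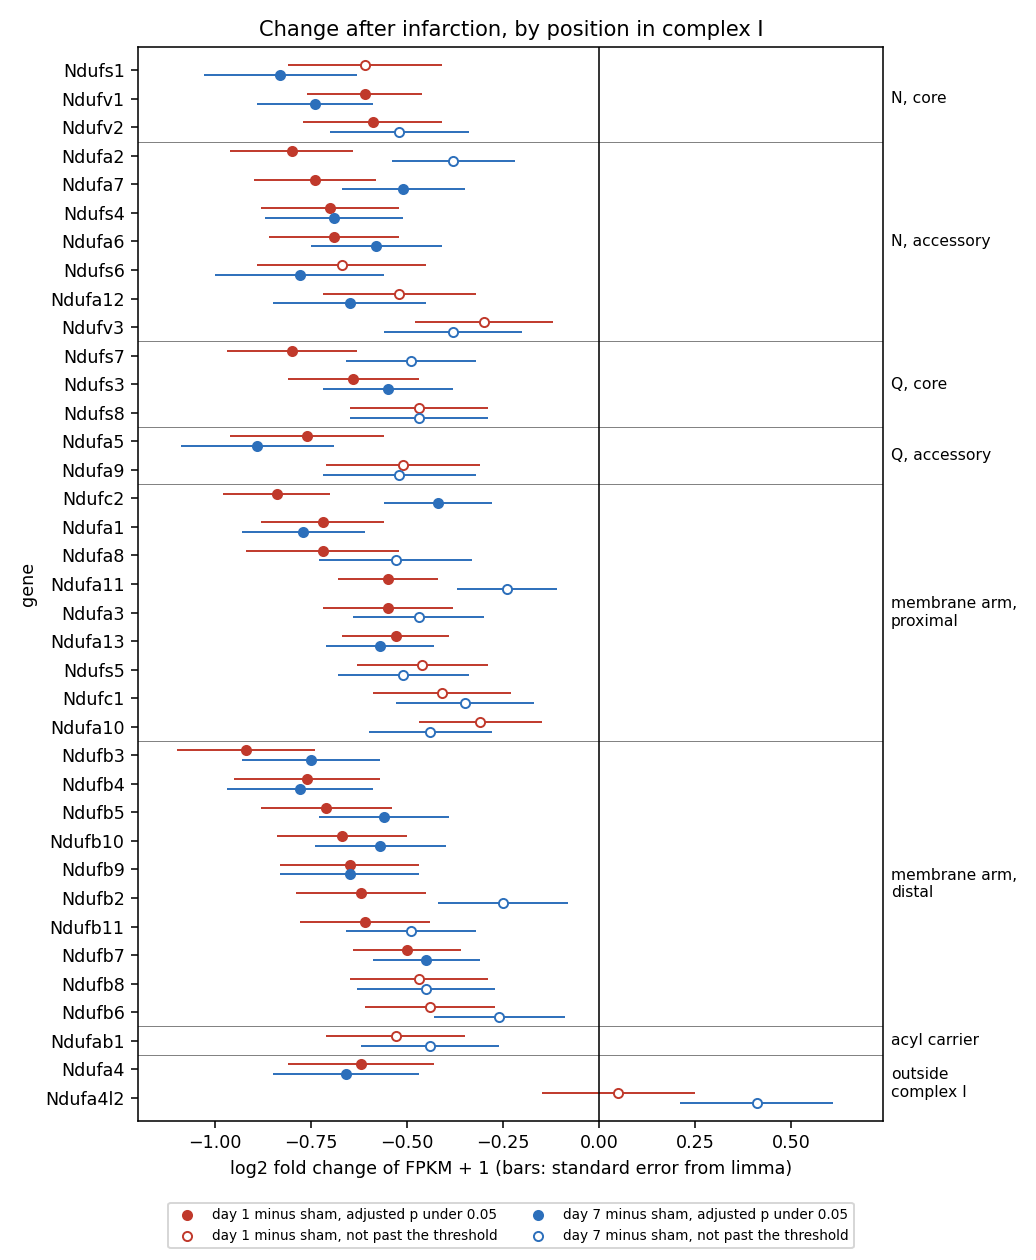
Log2 fold changes of FPKM + 1 against sham for 37 genes, in red at day 1 and blue at day 7, with bars of 1 SE from limma; filled points have an adjusted p under 0.05. All points but those of Ndufa4l2 lie left of 0, with 24 of those shown filled at day 1 and 19 at day 7.

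Between day 1 and day 7 no member was called by limma in either direction, against 4.85% of all genes (2.14% lower and 2.71% higher). At an unadjusted p under 0.05, 3 members were higher and 0 lower, against 3132 of all 13514 genes in either direction. The fold changes of day 7 against day 1 ran from -0.22 (Ndufs1) to 0.42 (Ndufa2 and Ndufc2), with a median of 0.06, and 16 of 38 were below 0, against 52% of all genes. In none of the 38 did the libraries of the 2 times stand apart, against 14.1% of all genes lower and 13.1% higher. Ndufc2 had 0.42 (SE 0.14, adjusted p = 0.124) and Ndufa2 0.42 (SE 0.16, adjusted p = 0.171), and Ndufb2, the third with an unadjusted p under 0.05, had 0.38 (SE 0.17, adjusted p = 0.227). Scaled to a common total, Ndufc2 was called higher, with 0.50 (SE 0.09, adjusted p = 0.042), against 0.836% of all genes. A p that misses the threshold does not show that the 2 times are alike: the SE of these differences lay between 0.13 and 0.22.

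The members kept together from library to library. The 36 genes summed to 13223, 12979 and 12017 FPKM in the sham libraries, 7996, 7420.0 and 9715 at day 1 and 6722, 9502 and 9979 at day 7. Day 1 library 3 was the highest of its group for 38 of 38 members. Day 7 library 1 was the lowest of its group for 37 of 38, and sham library 3 for 30. Those libraries held the same places in the FPKM total of all genes, at 729940, 521643 and 768943. The share of all genes with these ranks was not counted. As a share of all FPKM the sum was 1.67, 1.64 and 1.56% in the sham libraries, 1.29, 1.24 and 1.33% in those of day 1 and 1.29, 1.47 and 1.47% in those of day 7, so every infarct library was below every sham library on this scale too. Across the 36 genes, the sham level and the change had a Pearson r of -0.15 at day 1 and -0.34 at day 7 (Spearman rho -0.15 and -0.25), given as a description, since the genes share the libraries.

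The nuclear genes of complexes II to V, which take the electrons onward and make ATP, moved with complex I. Their genes summed to 47263, 44325 and 43809.5 FPKM in the sham hearts, to 28369, 26186 and 34792 1 day after infarction and to 23705, 33572 and 34429 7 days after it. The sum of complex I over this sum was 0.282 ± 0.0095 in sham, 0.281 ± 0.0021 at day 1 and 0.285 ± 0.0038 at day 7 (mean ± SD, n = 3), and the groups overlapped. The 10 cardiomyocyte markers had 6 genes called lower at each time, against 14.7% and 17.3% of all genes. Their medians were -0.72 at day 1 and -0.79 at day 7. They shared the order of the infarct libraries: day 1 library 2 and day 7 library 1 were the lowest of their groups in both sums.

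**Figure D3:**
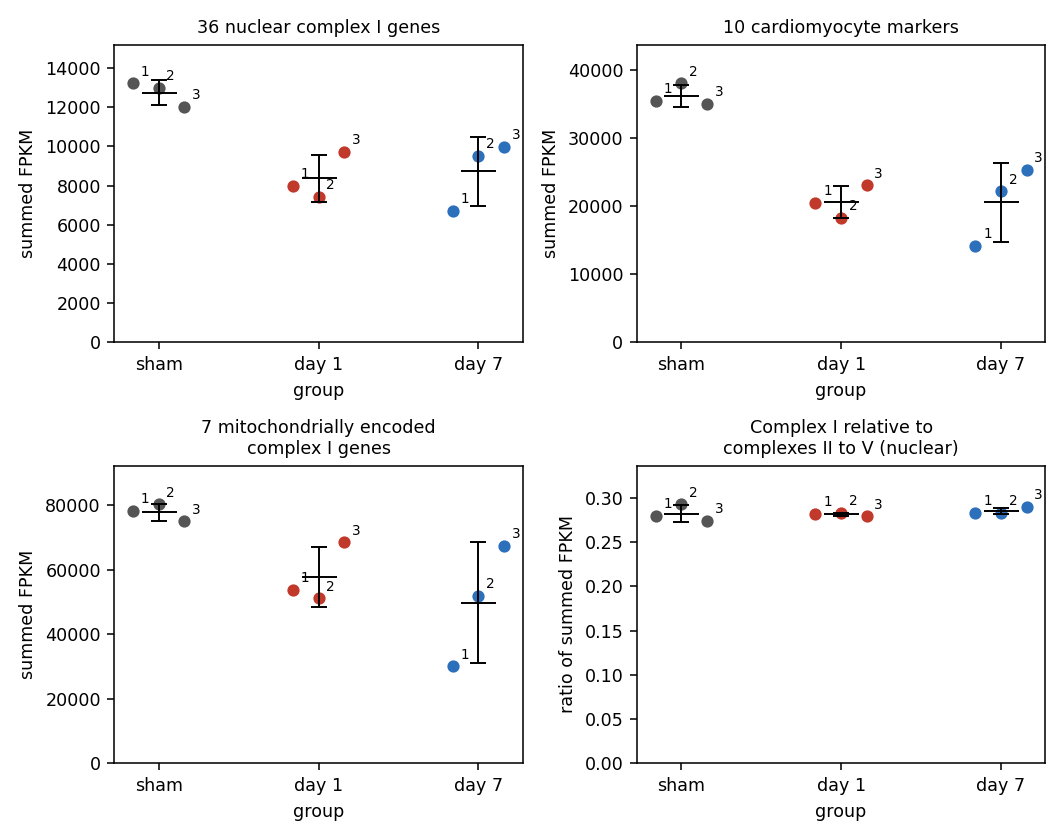
Summed FPKM per library of the 36 nuclear complex I genes, the 10 cardiomyocyte markers and the 7 mitochondrially encoded complex I genes, and the ratio of complex I to the nuclear genes of complexes II to V. Numbers mark the libraries, horizontal lines the mean and bars 1 SD (n = 3); the infarct sums lie below the sham sums in 3 panels, while the ratio lies between 0.274 and 0.293 in all 9 libraries.

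A pair of scalings chosen after seeing the data set the members against a reference inside the heart. With each library scaled to the median of the 10 cardiomyocyte markers, 0 members were called lower at either time, against 0.577% and 0.755% of all genes, and the medians of the 38 members were 0.11 at day 1 and 0.26 at day 7. On this scale 42.2% of all genes were called higher at day 1, where 0 members were, and 54.7% at day 7, where 5 of 38 were. Those 5 were Ndufb2 at 0.54 (SE 0.18, adjusted p = 0.0242), Ndufa11, Ndufb6 and Ndufc1 at 0.53, 0.52 and 0.44, and Ndufa4l2 at 1.14 (SE 0.28, adjusted p = 0.00853). Of the 36 complex I genes, 2 at day 1 and 6 at day 7 had an unadjusted p under 0.05. The part that the share of cardiomyocytes plays in the lower values of complex I was not tested.

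With each library scaled to the median of the 36 complex I genes themselves, which puts their median near 0 by construction, 33 of 36 at day 1 and 31 of 36 at day 7 lay within 0.25 of 0. At day 1, limma called 0 of the 36, with 3 at an unadjusted p under 0.05, while 0.969% of all genes were called lower and 40.9% higher. The widest values were those of Ndufb3, -0.32 (SE 0.13, adjusted p = 0.0608), and of Ndufv3, 0.31 (SE 0.12, adjusted p = 0.0602). At day 7, 1 of 36 was called, Ndufa5 with -0.34 (SE 0.12, adjusted p = 0.0465), against 1.34% of all genes lower and 33.9% higher. Ndufa4l2 was called higher on this scale at day 7, with 0.92 (SE 0.24, adjusted p = 0.0175), and had 0.61 (SE 0.24, adjusted p = 0.0599) at day 1.

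**Figure D4:**
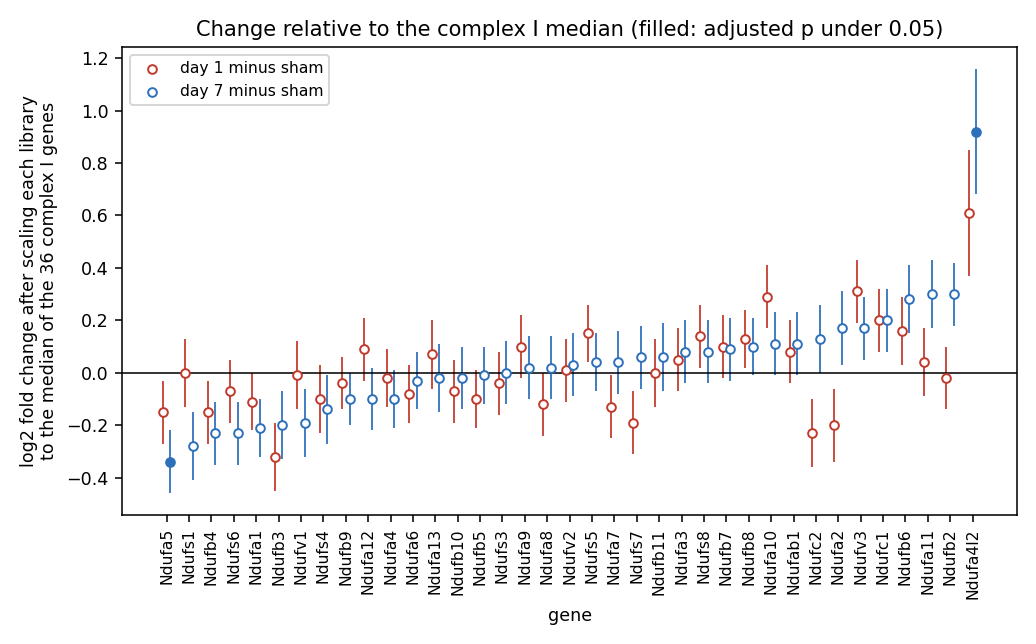
Log2 fold changes of 37 genes against sham after each library was scaled to the median of the 36 complex I genes, with bars of 1 SE and filled points where the adjusted p is under 0.05. Genes are ordered by their day 7 value; most lie within 0.25 of 0, with Ndufa5 lowest and Ndufa4l2 highest at day 7.

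The 7 complex I genes of the mitochondrial genome encode the proton-pumping core of the membrane arm. Their FPKM summed to 78172, 80226 and 74967 in the sham hearts, to 53768, 51144 and 68470.4 in those of day 1 and to 30024, 51994 and 67325 in those of day 7. That was 5.91, 6.18 and 6.24 times the nuclear sum in the sham libraries, 6.72, 6.89 and 7.05 times it in those of day 1 and 4.47, 5.47 and 6.75 times it in those of day 7. The 3 day 1 ratios lay above those of sham and the day 7 ratios on both sides, with day 7 library 1 lowest. Of the 7 genes, limma called 0 at day 1, with 1 lower and 0 higher at an unadjusted p under 0.05, and 1 at day 7, with 3 lower and 0 higher. Median fold changes were -0.44 and -0.61. mt-Nd4l was at 4379.5, 5828 and 5013 FPKM in the sham libraries, 3390.1, 3108 and 3991 at day 1 and 1645, 3064 and 3414 at day 7. Its fold changes were -0.54 (SE 0.28, adjusted p = 0.182) at day 1 and -0.96 (SE 0.28, adjusted p = 0.0304) at day 7. Groups did not overlap with sham for 6 of 7 genes at day 1 and 5 of 7 at day 7, all lower, against 25.1% and 28.8% of all genes. The share of all genes called lower was 14.7% at day 1 and 17.3% at day 7.

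Factors that build complex I were lower as well. Of 20 assembly genes, 13 were called lower and 0 higher at each time, against 14.7% and 17.3% of all genes called lower. Medians were -0.50 and -0.42. Ndufaf4, an early assembly factor, had -0.90 (SE 0.14, adjusted p = 0.00468) at day 1 and -0.76 (SE 0.14, adjusted p = 0.00788) at day 7. At day 1 the others with large falls were Tmem126a, a factor of the membrane arm, with -0.81 (SE 0.14, adjusted p = 0.00661), and 1810043H04Rik, also known as Ndufaf8, with -0.82 (SE 0.12, adjusted p = 0.00386). At day 7 they were Ecsit, of the same assembly complex as the acyl-CoA dehydrogenase-like factor Acad9, with -0.78 (SE 0.16, adjusted p = 0.00987), and Tmem126a with -0.74 (SE 0.14, adjusted p = 0.0086). At an unadjusted p under 0.05, 16 of the 20 were lower and 0 higher at each time.

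Iron-sulfur cluster synthesis, which supplies the cofactors of the core subunits, had 11 of 15 genes called lower at day 1 and 9 at day 7, and 0 higher, also at an unadjusted p under 0.05. Isca1, a late-acting assembly protein, had -0.78 (SE 0.15, adjusted p = 0.00877) at day 1 and -0.65 (SE 0.15, adjusted p = 0.0145) at day 7. The others named by size were Bola3 and Lyrm4 at day 1, with -0.71 and -0.69, and at day 7 the chaperone Hspa9, which had the largest called fall of the list there, with -0.80 (SE 0.18, adjusted p = 0.0126), and Nfu1 with -0.62 (SE 0.12, adjusted p = 0.00945). Enzymes that make NADH in the matrix, with the transhydrogenase Nnt, had 7 of 11 called lower at day 1 and 9 at day 7, and 0 higher, also at an unadjusted p under 0.05. Nnt, which passes hydride from NADH to NADP, had -0.92 (SE 0.23, adjusted p = 0.0211) at day 1 and -1.10 (SE 0.23, adjusted p = 0.0111) at day 7, and Pdhb, of pyruvate dehydrogenase, -0.93 (SE 0.19, adjusted p = 0.0103) at day 1 and -0.81 (SE 0.19, adjusted p = 0.0148) at day 7. The others named by size were Dld at day 1 with -0.71 and Idh3b at day 7 with -0.79. Beside the counts of both lists, 14.7% of all genes were called lower at day 1 and 17.3% at day 7.

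Across the rest of the chain, 2 of 4 genes of complex II were called lower at day 1 and 3 at day 7, 4 and 3 of 9 of complex III, 9 and 9 of 13 of complex IV, and 11 and 9 of 18 of complex V. None was called higher, and 0 were higher at an unadjusted p under 0.05. Medians lay between -0.64 and -0.50 at day 1 and between -0.61 and -0.40 at day 7, beside -0.61 and -0.52 for complex I. The largest called falls were those of Sdhd (-0.81) and Uqcr10 (-0.77) at day 1, Sdha (-0.75) and Uqcrb (-0.80) at day 7, Cox8b (-0.96 and -1.0 at the 2 times) and Atp5c1 (-0.73 and -0.84). Of 6 other genes that feed electrons to ubiquinone, 1 was called lower at day 1 and 2 at day 7, led by Etfb at -0.79 (SE 0.23, adjusted p = 0.0329) at day 1 and -0.98 (SE 0.23, adjusted p = 0.0145) at day 7. Over all genes, 14.7% were called lower at day 1 and 17.3% at day 7.

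The file gives values per transcript, and the 38 members had 83 transcripts, 63 of them at a mean of 1 FPKM or more. In 32 members 1 transcript held over 90% of the FPKM. Transcript shares were tested with limma's diffSplice for 42 transcripts of 17 members. At day 1 limma called 0 of them, with 2 at an unadjusted p under 0.05, against 1.94% of all 12090 transcripts tested. At day 7 it called 3, against 6.03%, and for day 7 against day 1 it called 0, with 5 at an unadjusted p under 0.05, against 3.47%.

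The calls at day 7 fell on Ndufc2 and Ndufs1. A minor transcript of Ndufc2, ENSMUST00000149122, which the GENCODE M21 annotation gives as coding for 108 codons against 120 for the main one, was at 9.07, 21.0 and 12.4 FPKM in sham. In the infarct libraries it was estimated at 1.57 ± 1.46 FPKM at day 1 and 0.881 ± 1.52 at day 7 (mean ± SD, n = 3). It made up 7.10% ± 2.64 of the gene in sham and 0.541% ± 0.935 at day 7, and its log2 change relative to the other transcript was -2.90 (adjusted p = 0.0240). With 2 transcripts in the test, the main one had the mirror value of 2.90. A transcript of Ndufs1 with 79 codons, ENSMUST00000185412, was at 1.02, 2.73 and 1.16 FPKM in the sham libraries and 0.993, 4.22 and 3.37 in those of day 7, with 1.22 relative to the gene's other transcripts (adjusted p = 0.0338), and its libraries overlapped. The count of 3 was 1 without sham library 2 or day 7 library 1 and 0 without sham library 3 or day 7 library 3, and it was 0 with a pseudocount of 0.1.

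Ndufv3 is known to have a short and a long form, the long one from an extra exon. The short transcript, of 104 codons, held 97.1% of the gene's FPKM over the 9 libraries, and the long one, of 468 codons, was at 12.9, 9.56 and 9.44 FPKM in the sham libraries, 9.70, 10.3 and 9.70 in those of day 1 and 9.97, 8.72 and 11.3 in those of day 7. Its share was not called, with 0.22 (adjusted p = 0.803) at day 1 and 0.32 (adjusted p = 0.507) at day 7. Ndufa5 was split almost evenly, with 54.7% for a transcript of 116 codons and 45.3% for one of 77 codons, and neither share was called (adjusted p = 0.896 at day 1 and 0.947 at day 7).

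Promoters of the members were read from RefSeq windows of 300 bases, 250 before and 50 after the start of a gene, on build GRCm38.p6, which is not the authors' build. Of the 38 members, 33 had 35 windows. In 31 of the 35, bases after the start lay near the start of a GENCODE M21 transcript of the gene. In 16, bases before the start lay inside such a transcript, so distances hold for the RefSeq start only. Both strands were searched for 6 motifs of factors known at genes of respiration or at promoters in general, without allowing a mismatch. The YY1 core AAGATGGC was in 20% of the members' windows, 7 of 35, against 4.21% of the 12103 windows of protein-coding genes tested and 2.75% of all 32851. The NRF1 core GCATGCGC was in 8.57% against 5.01% and 2.71%, the ERR site AAGGTCA in 8.57% against 3.16% and 4.72%, and the ETS core CCGGAAG in 11.4% against 16.6% and 8.86%. The SP1 box GGGCGG was in 45.7% against 61.5% and 35.7%, and the CCAAT box of NF-Y in 28.6% against 37.1% and 37.4%. A match is a run of letters, and no binding was measured here.

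All 7 YY1 matches read forward and lay 23 to 39 bases after the start. They are shown, with AAGATGGC in capitals, to let their positions be compared. Each line is 30 bases, 5′ to 3′ on the gene's strand.
Ndufa3: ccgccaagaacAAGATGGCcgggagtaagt
Ndufa9: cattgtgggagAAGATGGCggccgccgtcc
Ndufb8: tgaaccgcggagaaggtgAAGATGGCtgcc
Ndufc1: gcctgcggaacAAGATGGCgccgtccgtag
Ndufs4: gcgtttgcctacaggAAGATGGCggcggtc
Ndufs6: aagggtcaccggcAAGATGGCggcggtgct
Ndufs7: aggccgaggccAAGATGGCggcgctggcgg
The sites lie at chr7:3617384-3617413 on the plus strand for Ndufa3, chr6:126849097-126849126 on the minus strand for Ndufa9, chr19:44555393-44555422 on the minus strand for Ndufb8, chr3:51408915-51408944 on the minus strand for Ndufc1, chr13:114388045-114388074 on the minus strand for Ndufs4, chr13:73328433-73328462 on the minus strand for Ndufs6 and chr10:80249462-80249491 on the plus strand for Ndufs7. In each of the 7 genes the ATG inside the motif is an annotated start codon in GENCODE M21, in 1 of 2 transcripts with a start codon for Ndufa9 and in all of them for the other 6. These genes come from all 3 parts of the enzyme: Ndufs4 and Ndufs6 from the N module, Ndufs7 and Ndufa9 from the Q module, and Ndufa3, Ndufb8 and Ndufc1 from the membrane arm. Their day 1 fold changes ran from -0.80 (Ndufs7) to -0.41 (Ndufc1), within the range of the 36 genes.

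Matches to NRF1 and ERR, factors known to bind many genes of respiration, were each found in 3 members and are shown in the same way, with the match in capitals. The first 3 lines hold GCATGCGC, read forward. In the last 3 lines Ndufb2 and Ndufb4 hold AAGGTCA and Ndufs5 its reverse complement, TGACCTT.
Ndufa6: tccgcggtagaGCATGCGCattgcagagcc
Ndufa8: tcgctggagacGCATGCGCagatggtaccg
Ndufa11: ctgcactgcgcGCATGCGCgcacgccttgt
Ndufb2: ggagcagcagtAAGGTCAgccaagagcacc
Ndufb4: tcctgagcctgAAGGTCAgactcgagaggg
Ndufs5: tttctcgagtgTGACCTTgctcaagtagca
The NRF1 matches lie at chr15:82354356-82354385 on the minus strand for Ndufa6, chr2:36049328-36049357 on the minus strand for Ndufa8 and chr17:56717693-56717722 on the plus strand for Ndufa11, and the ERR matches at chr6:39592373-39592402 on the plus strand for Ndufb2, chr16:37654405-37654434 on the minus strand for Ndufb4 and chr4:123718396-123718425 on the minus strand for Ndufs5. The NRF1 match of Ndufa11 overlaps its own reverse complement, and it starts 58 bases before the start of the gene, against 83 for Ndufa6 and 8 for Ndufa8.

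**Figure D5:**
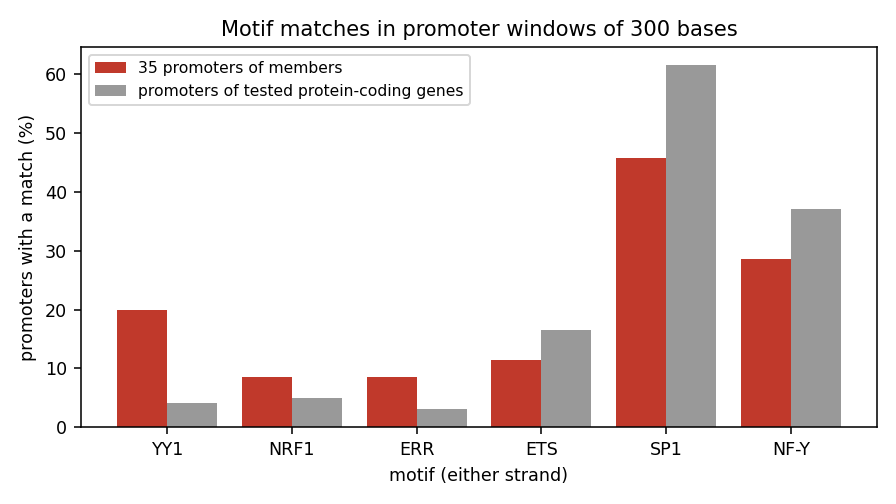
Percent of promoter windows with at least 1 match to a motif on either strand, in red for the 35 windows of members and in grey for those of the protein-coding genes tested; NF-Y stands for the CCAAT box. The YY1 bar of the members is at 20% against 4.21%, and those of ETS, SP1 and NF-Y are lower in the members.

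Some members start near the start of a gene on the other strand. By the RefSeq starts, 8 of the 33 members with a window start within 300 bases of the start of a neighbour on the other strand. The share of all genes with such a neighbour was not counted, so this is not shown to be a trait of the members. Of the 8 neighbours of members, 6 were tested. At day 1 limma called 0 of the 6, with 2 at an unadjusted p under 0.05, against 28.2% of all genes called. At day 7 it called 3, against 33.1%. Fam126b, next to Ndufb3, had -0.36 (SE 0.11, adjusted p = 0.0356) and Kbtbd4, next to Ndufs3, -0.42 (SE 0.14, adjusted p = 0.0476), while Vmac, next to Ndufa11, was higher, with 0.85 (SE 0.14, adjusted p = 0.00598).

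Gene models of 17 members overlap another gene in the GENCODE M21 annotation. For 14 the partner lies only on the other strand, as with Vmac for Ndufa11, Kbtbd4 for Ndufs3 and Mrpl36 for Ndufs6. No source says whether counting used strand, so reads in such overlaps cannot be told apart. In 3 members, Ndufb2, Ndufb8 and Ndufb9, another protein-coding model lies on the same strand, and their values are uncertain to that extent. The annotation also holds 4 processed pseudogenes named after members, Ndufb4c, Ndufab1-ps, Ndufs6b and Ndufa11b, whose parent genes could share reads with them.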

How the data were processed

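Heart RNA of 9 libraries was sequenced, 3 each of sham operation, day 1 and day 7 after infarction, grouped by their titles. TRIzol RNA went into libraries of the VAHTS Universal V6 kit, per the labels' protocols. Reads were handled with FastQC 0.11.9, HISAT2 2.1.0 and HTSeq 0.11.2 on build GRCm39, per the submitters' processing notes. The deposited values are FPKM made by the authors, given for 55361 transcripts. No source used here names the tool that divided reads among transcripts, or says if strand was used. Depth is unknown, so precision rests on the spread between libraries.

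The FPKM of a gene was the sum over its transcripts. Genes with a mean of 1 FPKM or more over the 9 libraries were tested, 13514 of 25468. Values were tested as log2(FPKM + 1), which understates changes of low genes, with limma 3.58.1 in R 4.3.3, a variance trend, 1 mean per group and a spread shared by all 9 libraries. Tests were two-sided with Benjamini-Hochberg adjustment over all genes, and errors of fold changes are SE from limma. An exact permutation test of 3 against 3 libraries has a smallest two-sided p of 0.1 and was not run. The scripts were tested on simulated data.

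Members, gene lists and markers were chosen with earlier results of these data known. Full values are given for the 4 called members with the largest fall at each time, the core subunits and members whose direction differed from the median. They are also given for some further members, called or not, such as Ndufa10 and Ndufv3. Up to 3 called genes of each other list are named. The values of 1 member are not reported here, and it is counted but not drawn in the figures of single genes. Promoter sequences are from RefSeq (GRCm38.p6). GENCODE M21 served for names, overlaps, codons, start codons and a check of the promoter windows. Of the listed genes, Ndufb1, Coa1 and Trac were not matched in the file and are not analysed here. Alternatives covered the pseudocount, the filter, 4 scalings, the variance trend, the libraries fitted, the replicate numbers as a block, the top transcript of a gene, each library left out and both libraries with airway markers left out (chosen from marker values known from an earlier analysis), plus 2 scalings added after seeing the data.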

Additional observations from a re-analysis of the deposited data

Results flagged for a closer look

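Vmac starts within 300 bases of the start of Ndufa11, on the other strand. Its log2 fold change for day 7 against day 1 was 0.95 (SE 0.14, limma with Benjamini-Hochberg adjustment, adjusted p = 0.0151). Its change after infarction thus differed between the 2 times. That difference passed a test of its own. Ndufa11, whose gene model it overlaps on the other strand, had 0.31 (SE 0.13, adjusted p = 0.200) in the same comparison. Without counting by strand, reads in the overlap cannot be told apart, and its part in the value was not tested.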

How the results depend on the processing

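Over 21 alternatives, of which the one without both libraries with airway markers was chosen from marker values already known, 37 or 38 members lay below 0 at day 1 and 33 to 37 at day 7. The counts of calls moved more. At day 1, 24 members called lower became 8 with no filter on low values, 12 with quantile normalisation and 0 without both libraries with airway markers (sham library 1 and day 1 library 2). Leaving out 1 library gave 3 to 35. At day 7, 20 became 7 with no filter, 8 with quantile normalisation, 7 with a common total (TPM), 9 with a common total without mitochondrially encoded genes, and 2 without the airway libraries, and leaving out 1 library gave 3 to 25. The cause was not tested.

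Members called higher at day 7 went from 0 to 1 with either common total and from 0 to 0 or 1 with 1 library left out. For day 7 against day 1 they went from 0 to 1 with quantile normalisation and with a common total, and to 0 or 1 with 1 library left out. Medians with a common total were -0.33 and -0.17. With it, Ndufa11 and Ndufb2 turned to 0.11, Ndufb6 to 0.09 and Ndufc1 to 0.01 at day 7. Ndufa4l2 at day 1 ran from -0.17 to 0.18 with 1 library left out and was below 0 without sham library 1 (-0.05) or day 1 library 3 (-0.17). Scaled to cardiomyocyte markers, 0 members were lower at either time, 5 were higher at day 7, and the medians were 0.11 and 0.26.

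Same-numbered libraries had correlations of their deviations from -0.37 to 0.27, and differently numbered ones from -0.53 to 0.40. With 3 libraries per group, these correlations cannot show whether the numbers mark a pairing or a batch. With the replicate block, 18 members were lower at day 1 and 13 at day 7, and 1 transcript share was called at day 7. That count of 3 was 0 with a pseudocount of 0.1 and 0 to 3 with 1 library left out, and for day 7 against day 1 it was 0 to 3.

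Of all genes, 1993 lower and 1817 higher at day 1 became 1309 and 1535 with no filter, 1807 and 1199 at a minimum of 5 FPKM, 886 and 3583 with a common total without mitochondrial genes, 146 and 256 without the airway libraries, and 790 to 2299 and 968 to 1957 with 1 library left out. At day 7, 2341 and 2127 became 2073 and 1310 at a minimum of 5 FPKM, 1042 and 3844 without mitochondrial genes in the total, 1047 and 1078 without the airway libraries, and 1042 to 2618 and 1124 to 2276 with 1 library left out. For day 7 against day 1, 289 and 366 became 147 and 142 with no filter, 202 and 242 at a minimum of 5 FPKM, 72 and 113 with a common total, 88 and 78 with the 2 groups alone, 93 and 144 with the block, 26 and 34 without the airway libraries, and 62 to 244 and 75 to 275 with 1 library left out.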
